A study of Mus musculus with 7 samples.

Results

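The 10 genes described here are the mouse stearoyl-CoA desaturases Scd1, Scd2, Scd3 and Scd4, the fatty acid synthase gene Fasn, the acetyl-CoA carboxylases Acaca and Acacb, the elongases Elovl5 and Elovl6, and Srebf1. They are 10 of the 24421 genes in a table of RNA sequencing counts from mouse left atria. They were chosen by function around Scd3, which was itself selected on its steep difference between the groups, so the values of Scd3 are a description and carry no test. All 10 passed the filter on low counts that left 13295 genes for testing. Scd3 passed it through the wild type libraries alone, and a gene that passes in this way had to differ.

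The samples were left atria of adult CD1 mice, 4 libraries labelled FOG2 overexpression and 3 labelled WT, and both groups had been without doxycycline for 1 week. The labels call the animals DTG and NTG without spelling these out, and the sources used here do not name the promoter that drove FOG2 or any allele that both groups share. FOG2 is the product of Zfpm2, a zinc finger cofactor of GATA factors, and the series concerns gene networks of cardiac rhythm that depend on FOG2 and the T-box factor TBX5. Nothing in the labels ties a library to its own animal, so p-values here reflect differences among libraries, part of which may be technical.

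De novo lipogenesis builds fatty acids from acetyl-CoA. Acetyl-CoA carboxylase makes malonyl-CoA, fatty acid synthase joins these units to palmitate, elongases lengthen the chain, and stearoyl-CoA desaturase sets a double bond into saturated chains to give mainly oleate and palmitoleate. SREBP-1, encoded by Srebf1, is the transcription factor that drives many of these enzymes. In heart muscle, which burns rather than makes fat, the carboxylase Acacb is best known because its malonyl-CoA restrains the entry of fatty acids into mitochondria. The mouse has 4 desaturase genes side by side, and Scd4 has been described as the heart form.

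The 4 desaturase genes lie within 204611 bp of chromosome 19 (mm10, GENCODE M21) in the order Scd3, Scd2, Scd4 and Scd1, with gaps of 49657, 26227 and 47711 bp. Scd3 runs from 44203269 to 44244016, Scd2 from 44293674 to 44306864 and Scd4 from 44333092 to 44346743, all on the plus strand. Scd1 lies on the minus strand from 44394455 to 44407879. Their coding sequences were alike, which matters for reads that fit more than 1 gene. Scd1 and Scd3 were 91.5% identical over 1065 aligned bases, the closest pair, and Scd2 and Scd4 were 83.8% identical, the most distant. The 60 coding bases that begin at the first histidine box, a conserved iron-binding motif of the enzyme, show how many bases tell the genes apart. Capitals mark each base that differs from Scd1.
Scd1: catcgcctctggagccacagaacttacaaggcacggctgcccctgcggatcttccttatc
Scd2: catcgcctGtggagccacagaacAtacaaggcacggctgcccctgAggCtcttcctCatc
Scd3: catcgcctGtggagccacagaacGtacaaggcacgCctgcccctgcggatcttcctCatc
Scd4: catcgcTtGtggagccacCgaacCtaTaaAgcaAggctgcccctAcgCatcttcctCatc
In this stretch 5 bases of Scd2, 4 of Scd3 and 10 of Scd4 differed from Scd1. Over the whole transcript, 6.69% of the 50-base words of Scd3 and 6.32% of those of Scd4 also occurred in a transcript of another gene, as did 4.66% for Scd1 and 4.01% for Scd2. Between Scd3 and Scd4 themselves 68 words were shared, 1.98% of those in Scd3. Reads with several alignments stand in a row of their own in the table and were not counted to a gene. An annotated antisense gene, AC125101.1, overlaps an exon of Scd3, and without a stated strand setting its reads cannot be told apart from those of Scd3.

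The promoters of Scd3 and Scd4 are shown because these were the genes with the largest differences and the series concerns a GATA cofactor and a T-box factor. Both come from RefSeq on GRCm38.p6, plus strand, and run from 250 bases before the start site to 50 bases after it. They lie at chr19:44203038-44203337 for Scd3 and chr19:44333076-44333375 for Scd4. Capitals mark matches to a GATA word (GATAA or GATAG) or a T-box word (AGGTGT) on either strand.
Scd3: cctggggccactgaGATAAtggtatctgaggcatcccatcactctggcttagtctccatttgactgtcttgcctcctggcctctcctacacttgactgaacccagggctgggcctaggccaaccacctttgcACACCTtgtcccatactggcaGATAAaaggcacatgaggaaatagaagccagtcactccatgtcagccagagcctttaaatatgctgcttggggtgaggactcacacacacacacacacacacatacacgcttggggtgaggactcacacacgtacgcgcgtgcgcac
Scd4: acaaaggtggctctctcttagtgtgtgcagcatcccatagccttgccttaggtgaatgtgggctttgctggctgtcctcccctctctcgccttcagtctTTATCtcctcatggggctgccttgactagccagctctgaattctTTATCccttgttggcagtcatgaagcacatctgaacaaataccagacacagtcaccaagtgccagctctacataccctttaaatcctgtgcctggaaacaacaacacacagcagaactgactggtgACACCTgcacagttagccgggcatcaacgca
Scd3 held 2 GATA words, starting at -236 and -97 relative to the start site, and 1 T-box word at -118. Scd4 held 2 GATA words, at -151 and -107, and 1 T-box word 20 bases after the start site used here. The GENCODE model of Scd4 starts earlier, at 44333092, near the left end of this window. By that model all the marked words of Scd4 lie within the gene and not before it. No match overlapped another. Promoters were found for 8 of the 10 genes, and the table lacks Scd1 and Scd2. Of these 8, 4 held a GATA word (Elovl5, Elovl6, Scd3 and Scd4), against 41.6% of all 32851 promoters of this length. Scd3 and Scd4 were the members with a T-box word, which 13.7% of all promoters held, and 6.19% of all promoters held both words. The sterol response word TCACNCCAC was in 0 of the 8 and in 1.24% of all promoters. The words are short, and a match is not a binding site.

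Depth was similar across libraries. Counts in genes came to 5562520 to 8655655 in the FOG2 overexpression libraries and 7673309 to 8579443 in the WT libraries, so 1 count stood for 0.111 to 0.174 CPM (counts per 1000000, on library totals scaled by TMM). Zfpm2 had 140.1, 222.3, 261.8 and 246.2 CPM in overexpression replicates 1 to 4, against 31.7, 30.9 and 29.4 CPM in WT replicates 1 to 3, so every library matched its label (log2 fold change 2.82 ± 0.22, SE, adjusted p = 2.05e-04). Overexpression replicate 1 stood apart: across genes its log2 CPM correlated with the other overexpression libraries at 0.947 to 0.949, while those reached 0.983 among themselves. It and WT replicate 2 carried Y-linked transcripts, at 545.1 and 556.9 CPM, and the other 5 libraries carried at most 0.578 CPM. Overexpression replicate 2 had the highest summed level of fat cell markers, given below. The atrial markers Myl7, Myl4 and Sln were abundant in every library, the lowest value being 841.2 CPM of Sln in overexpression replicate 1.

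Scd3 and Scd4 were the members that differed most. Scd3 is a desaturase known in mouse from skin and the Harderian gland. It had 4, 0, 0 and 1 counts in overexpression replicates 1 to 4, against 17, 23 and 64 counts in WT replicates 1 to 3. In CPM this was 0.140 ± 0.210 (SD, n = 4) in overexpression and 4.39 ± 3.09 (SD, n = 3) in WT, a ratio of WT to overexpression of 31.3 and a log2 fold change of -4.63 ± 0.79 (SE). Every overexpression library lay below every WT library. A count of 0 in replicates 2 and 3 allows up to 0.432 and 0.522 CPM (3 counts, counting error only). As the choice of Scd3 rested on this contrast, no p is given for it.

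Scd4 was the more abundant partner. It had 235, 13, 16 and 31 counts in overexpression replicates 1 to 4, against 590, 756 and 2928 counts in WT replicates 1 to 3. These are 26.1, 1.88, 2.78 and 3.61 CPM in overexpression, against 70.4, 106.8 and 360.6 CPM in WT. The groups did not overlap, although the values within each spanned a wide range: overexpression replicate 1 was far above the other 3, and WT replicate 3 far above the other 2. The means were 8.59 ± 11.7 CPM (SD, n = 4) in overexpression and 179 ± 158 CPM (SD, n = 3) in WT. The log2 fold change was -4.30 ± 0.96 (SE), with a 95% interval of -6.56 to -2.05 and a Benjamini-Hochberg adjusted p of 0.0519 over all genes in edgeR's quasi-likelihood test, which does not pass the threshold of 0.05. Without overexpression replicate 1 it was -5.99 with an adjusted p of 0.0386, and the test also passed with DESeq2 (0.00234), limma-voom (0.0257) and library totals alone (0.0233). Without WT replicate 3 it was -3.30 with an adjusted p of 0.149. Over the 17 alternatives the adjusted p ran from 0.00234 to 0.251, and the log2 fold change stayed between -6.25 and -3.30. In bulk atria, fewer cells of a type and less RNA per cell cannot be told apart.

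Of the 9 members other than Scd3, 0 had an adjusted p under 0.05 with edgeR. Over all 13295 genes, 4.84% were called, 1.55% higher and 3.29% lower in overexpression. Scd3 also meets this rule, as its choice fixed, and is left out of the counts. An unadjusted p under 0.05 was found for 4 of the 9 (Scd4, Elovl6, Acaca and Srebf1) and for 19.2% of all genes tested. Libraries of the groups were fully separate for 2 of the 9 (Scd4 and Elovl6), beside 19.8% of all genes tested, so the share is near the background. Without Scd3 the median log2 fold change of the members was 0.04, beside 0.02 for all genes tested. Among the 9, Scd4 was called as lower with DESeq2, limma-voom or library totals alone. Without overexpression replicate 1, Scd4 was called as lower and Acaca as higher. In the other 13 of the 17 alternatives 0 of the 9 were called.

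**Figure D1:**
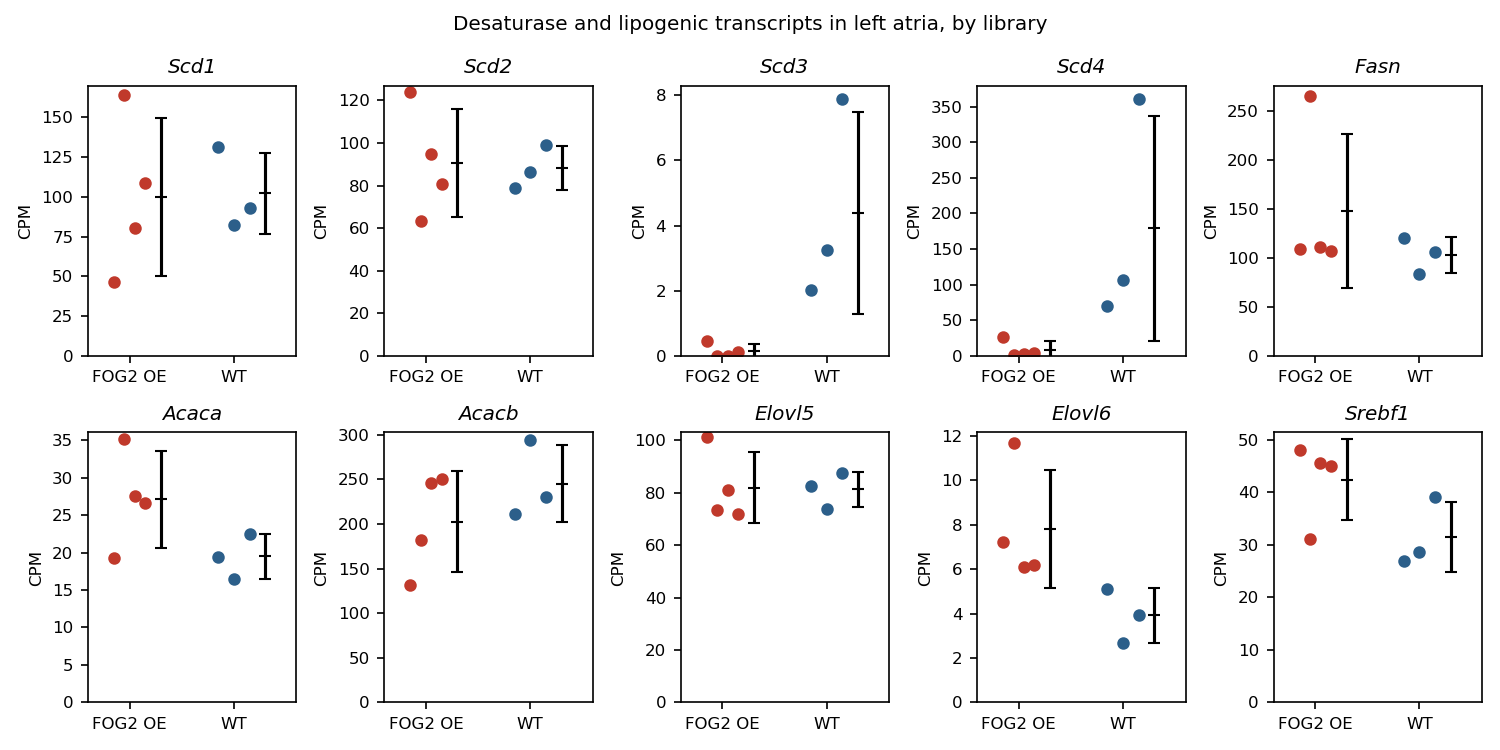
Each panel plots the CPM (on TMM-scaled library totals) of a gene in the 4 FOG2 overexpression (OE) libraries, left, and the 3 wild type (WT) libraries, right; points are libraries, and the black mark and bar give the mean and SD, cut off at 0. For Scd3 and Scd4 all overexpression points lie below all WT points, and for Elovl6 all lie above.

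**Figure D2:**
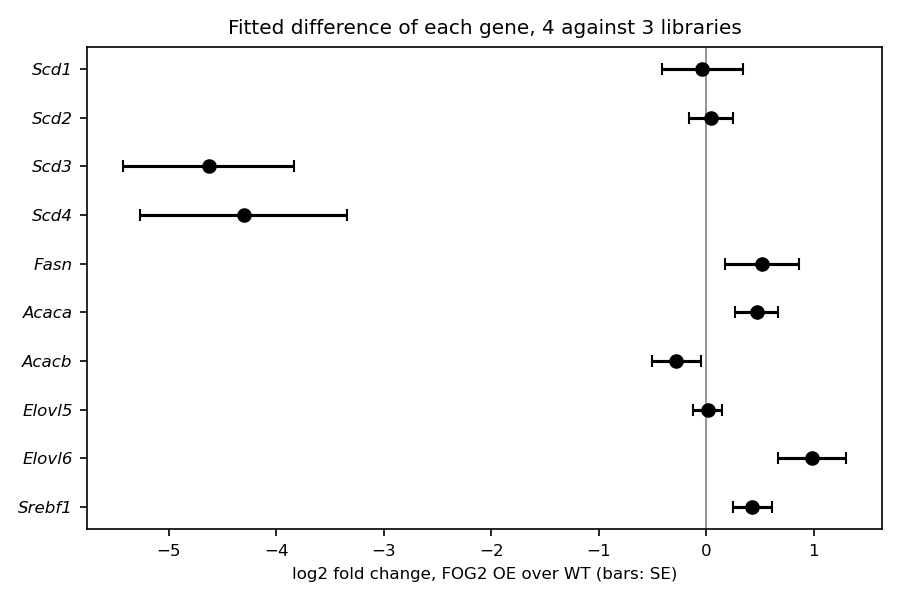
Points give the log2 fold change of overexpression over WT from edgeR, and bars the SE. Scd3 (-4.63) and Scd4 (-4.30) stand far to the left, and the other 8 genes lie between -0.28 and 0.98.

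Scd3 was the minor part of the pair in every library. It made up 1.67%, 0%, 0% and 3.12% of their summed counts in overexpression replicates 1 to 4, and 2.80%, 2.95% and 2.14% in WT replicates 1 to 3. The exact 95% intervals were wide in overexpression, 0.0791% to 16.2% in replicate 4, and cover counting error only. Most counts of the pair in overexpression came from replicate 1, and the groups were not compared in this share. Whether some reads of Scd4 were counted as Scd3 was not tested.

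Scd1 and Scd2, which flank Scd4, showed no such difference. Scd1 is the main desaturase of liver and fat, and Scd2 the form known from brain. Scd1 had 46.2, 163.8, 80.2 and 108.9 CPM in overexpression replicates 1 to 4, against 131.2, 82.5 and 93.0 CPM in WT replicates 1 to 3. The overexpression libraries lay on both sides of WT. Its log2 fold change was -0.04 ± 0.38 (SE, 95% interval -0.91 to 0.84, adjusted p = 0.970). Differences anywhere inside that interval, which is not adjusted over genes, remain compatible with these libraries. The log2 fold change of Scd1 changed sign in 5 of the 17 alternatives, between -0.38 without overexpression replicate 2 and 0.20 without overexpression replicate 1. Scd2 had 123.7, 63.4, 94.6 and 80.5 CPM in overexpression, against 78.7, 86.4 and 99.2 CPM in WT (log2 fold change 0.04 ± 0.21, interval -0.43 to 0.51, adjusted p = 0.935). These genes ordered the libraries in nearly opposite ways. Overexpression replicate 2 was highest in Scd1 and lowest in Scd2, and replicate 1 lowest in Scd1 and highest in Scd2.

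Per kilobase of exon, the make-up of the desaturase transcripts differed between libraries. Scd4 was 17.7%, 1.09%, 2.14% and 2.52% of the 4 genes in overexpression replicates 1 to 4, against 30.9%, 45.8% and 70.9% in WT replicates 1 to 3. The groups did not overlap. Scd1 was 24.1% to 73.4% in overexpression and 14.1% to 44.3% in WT, and Scd3 at most 0.320% in overexpression and 1.64% in WT. The summed level of the 4 genes was 39.1, 45.6, 34.5 and 38.0 CPM per kb in overexpression, against 60.5, 61.9 and 135.1 CPM per kb in WT. These shares contain the difference by which Scd3 was chosen and are given as a description.

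**Figure D3:**
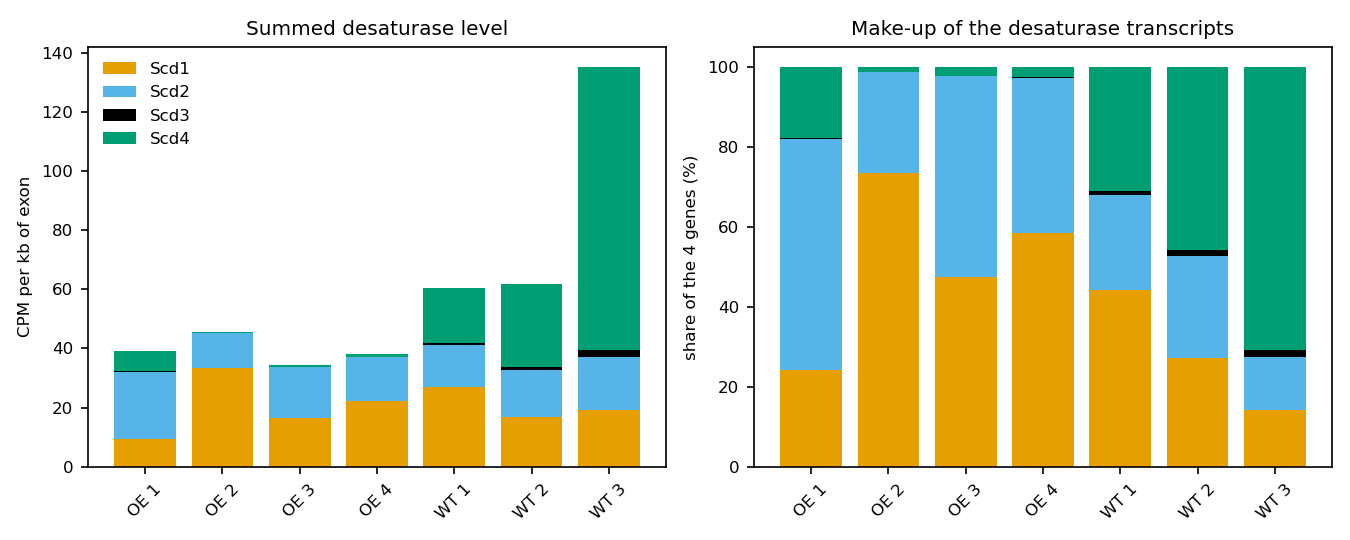
Bars show, for each overexpression (OE) and wild type (WT) library, the level of the 4 desaturase genes in CPM per kb of exon (left) and their shares of the sum in percent (right). Scd4, in green, is 1.09% to 17.7% of the sum in overexpression and 30.9% to 70.9% in WT.

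The synthesis genes did not pass the test. Fasn had 108.5, 265.3, 111.0 and 107.0 CPM in overexpression replicates 1 to 4, against 120.3, 83.3 and 105.6 CPM in WT replicates 1 to 3. Replicate 2 lay far above the rest, and the other 3 overexpression libraries were within the WT range. Its log2 fold change was 0.52 ± 0.35 (interval -0.28 to 1.32, adjusted p = 0.458), and 0.08 without overexpression replicate 2. Acaca, the carboxylase of lipogenic tissues, had 19.2, 35.1, 27.5 and 26.7 CPM in overexpression, against 19.4, 16.5 and 22.5 CPM in WT. All overexpression libraries but replicate 1 lay above WT. The log2 fold change was 0.47 ± 0.20 (adjusted p = 0.246), and 0.61 (adjusted p = 0.0355) without replicate 1. Of the 50-base words of Acaca, 52.6% also occurred in transcripts of Gm5182, so reads that fit both are left out of its count. Acacb, the carboxylase of muscle, had 131.4, 182.1, 245.6 and 250.1 CPM in overexpression, against 211.4, 294.3 and 229.8 CPM in WT (-0.28 ± 0.23, interval -0.79 to 0.24, adjusted p = 0.546).

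The elongases differed in how far the groups stood apart. Elovl6, which lengthens palmitate to stearate, had 7.22, 11.7, 6.09 and 6.17 CPM in overexpression replicates 1 to 4, against 5.13, 2.68 and 3.94 CPM in WT replicates 1 to 3. Every overexpression library lay above every WT library. The means were 7.79 ± 2.65 CPM (SD, n = 4) in overexpression and 3.92 ± 1.22 CPM (SD, n = 3) in WT, with a log2 fold change of 0.98 ± 0.32 (interval 0.27 to 1.70) that did not pass the test (adjusted p = 0.127). It was positive in all 17 alternatives, between 0.72 and 1.22. An annotated antisense gene, Gm35986, overlaps an exon of Elovl6. Elovl5, which lengthens polyunsaturated chains, had 101.3, 73.5, 81.1 and 71.8 CPM in overexpression, against 82.5, 73.9 and 87.3 CPM in WT (0.01 ± 0.13, interval -0.29 to 0.32, adjusted p = 0.972). Its interval was the narrowest among the members.

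Srebf1, the regulator, had 48.0, 31.0, 45.6 and 45.03 CPM in overexpression replicates 1 to 4, against 26.8, 28.5 and 39.2 CPM in WT replicates 1 to 3. Of the overexpression libraries 3 lay above the WT range and replicate 2 within it. The log2 fold change was 0.43 ± 0.18 (interval 0.01 to 0.85, adjusted p = 0.246). An exon of Srebf1 overlaps Rai1 on the opposite strand, and without a stated strand setting the reads there cannot be told apart. Replicate 2, lowest of its group in Srebf1, was the highest in Fasn, Acaca, Elovl6 and Scd1.

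Of the 16 fat cell markers, 11 were highest in that same library, as were 4 of the 7 brown fat markers with any count. Some of these rest on few counts there, such as Lep with 6, Adrb3 with 5 and Slc27a2 with 4. The share of all genes highest in that library was not computed, so these numbers of markers have no background beside them. Adipoq, the fat cell hormone adiponectin, had 0.333, 17.5, 1.22 and 1.63 CPM in overexpression replicates 1 to 4, against 2.98, 2.12 and 4.80 CPM in WT replicates 1 to 3. Ucp1, the defining protein of brown fat, had 0.222, 15.02, 0 and 0 CPM in overexpression and 0 in every WT library. Overexpression replicate 2 was thus the highest library in both, as in Fasn. Plin1 and Cidec, coats of the fat cell's lipid droplet, were also highest there, at 6.79 and 13.9 CPM. Other markers were highest elsewhere. Fabp4, which endothelial cells also make, had 315.1, 201.2, 159.4 and 162.4 CPM in overexpression replicates 1 to 4, against 230.0, 279.6 and 262.3 CPM in WT replicates 1 to 3. The lipase gene Lipe peaked at 42.5 CPM in WT replicate 3, and the brown fat marker Dio2 at 114.0 CPM in overexpression replicate 1. Over the 16 fat cell markers the summed level was 226.2 to 468.9 CPM in overexpression and 314.8 to 390.8 CPM in WT, and 0 of the 13 tested passed edgeR's test, 0 had an unadjusted p under 0.05, and DESeq2 and limma-voom called 0. For Scd3 and Scd4 the order was another: replicate 2 had 0 counts of Scd3 and the lowest Scd4 in the series. The part of fat cells in Fasn, Acaca, Elovl6 and Scd1 was not tested beyond the values without that library, at which Scd1 was -0.38, Fasn 0.08, Acaca 0.32 and Elovl6 0.72.

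**Figure D4:**
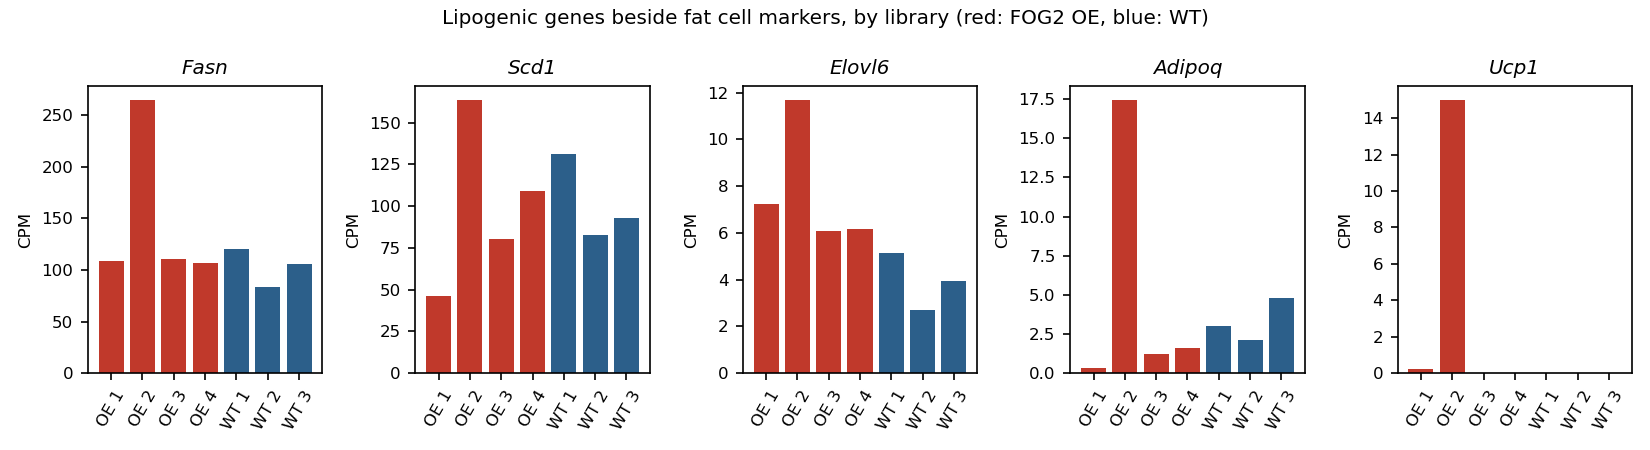
Bars give CPM by library for 3 lipogenic genes and for the fat cell markers Adipoq and Ucp1, in overexpression (OE, red) and wild type (WT, blue). Overexpression replicate 2 is the highest library in all 5 panels, with 265.3 CPM of Fasn and 17.5 CPM of Adipoq. Genes that peak in another library, such as Scd2, Fabp4 and Dio2, are not plotted.

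Per kilobase of exon, the order of the members also differed between the groups. In overexpression it was Elovl5 at 23.3, Acacb at 21.0, Scd1 at 20.4, Scd2 at 16.6, Fasn at 13.5, Srebf1 at 7.53, Scd4 at 2.28, Acaca at 1.59, Elovl6 at 1.21 and Scd3 at 0.0395 CPM per kb. The ranges of neighbours in that order overlapped except between Fasn and Srebf1 and between Elovl6 and Scd3. In WT the order was Scd4 at 47.6, Acacb at 25.5, Elovl5 at 23.1, Scd1 at 20.9, Scd2 at 16.1, Fasn at 9.42, Srebf1 at 5.59, Scd3 at 1.23, Acaca at 1.14 and Elovl6 at 0.609 CPM per kb. In WT the ranges of neighbours overlapped from Scd4 down to Scd2 and between Scd3 and Acaca, and Scd4 was above Acacb in 1 of 3 libraries. Spread between libraries was wide for Scd3 and Scd4, with a coefficient of variation of 150% and 136% in overexpression and 70.4% and 88.2% in WT. For Elovl5 it was 16.5% in overexpression and 8.40% in WT.

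Among other genes, those closest in pattern to Scd3 by the Pearson correlation of log2 CPM over the 7 libraries were Bfar, Ggct, Ndufs7, Cog4 and Zfp275, at 0.988 to 0.995. Their differences were small, with Bfar at 77.8 to 84.3 CPM in overexpression and 91.1 to 98.9 CPM in WT. Scd4 came 9th of 13254 genes, at 0.983. Closest to Scd1 were Zfyve9, 9130221H12Rik, Angptl7, Mpeg1 and Dhtkd1, at 0.962 to 0.982. Scd2 came 13235th for Scd1, at -0.950, and Scd3 7500th, at -0.102. These values describe 7 libraries in 2 groups and share their group structure and depth. Around the desaturase cluster, 7 genes within 300 kb were tested, and 1 of them passed, Sec31b, at 16.8 ± 4.07 CPM (SD, n = 4) in overexpression and 29.5 ± 2.87 CPM (SD, n = 3) in WT (log2 fold change -0.81 ± 0.19, edgeR adjusted p = 0.0416). Its call was lost in 7 of the 17 alternatives, among them the removal of overexpression replicates 2 or 3 or of any WT library, at adjusted p of up to 0.175. These neighbours were chosen by position after the values of the cluster were seen.

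The rest of the pathway moved in few genes and in both directions. Of 85 tested genes on 5 lists by role, 3 rose and 5 fell, 9.41% of them, beside 4.84% of all genes tested (1.55% higher and 3.29% lower), and the median log2 fold change was 0.12. Among other genes of desaturation and elongation, 2 of 16 rose, 1 fell and 13 did not pass (median 0.21). Fads1, the desaturase that forms arachidonate, rose, with 55.6, 55.9, 59.7 and 51.4 CPM in overexpression replicates 1 to 4, against 36.0, 33.3 and 34.4 CPM in WT replicates 1 to 3 (0.69 ± 0.09, adjusted p = 0.00366). Hacd2, a dehydratase of chain elongation, rose to 16.1 ± 3.52 CPM in overexpression, against 8.30 ± 0.639 CPM in WT (0.95 ± 0.20, adjusted p = 0.0283). Tecr, which catalyses the last step of elongation, fell to 74.3 ± 4.16 CPM in overexpression, against 126.2 ± 9.07 CPM in WT (-0.77 ± 0.09, adjusted p = 0.00200). Fads1 and Tecr passed in all 17 alternatives. The call of Hacd2 was lost with the replicate block and without any library but overexpression replicate 1, at adjusted p of 0.0616 to 0.125.

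Of 14 genes that supply acetyl-CoA and NADPH, 2 fell and 0 rose (median 0.09). Acss1, a mitochondrial enzyme that activates acetate, fell to 132.5 ± 21.8 CPM in overexpression, against 226.6 ± 34.4 CPM in WT (-0.77 ± 0.15, adjusted p = 0.0214). Its call was lost without overexpression replicate 2 (0.0648) or WT replicates 2 (0.110) or 3 (0.0611). Oxsm, of mitochondrial fatty acid synthesis, fell by 0.58 ± 0.13 on the log2 scale (adjusted p = 0.0432), a call lost in 10 of 17 alternatives, among them every left-out library but overexpression replicate 1, at 0.0723 to 0.193. Acly, which makes cytosolic acetyl-CoA from citrate, did not pass (0.37 ± 0.12, adjusted p = 0.111), although every overexpression library lay above every WT library. Groups were fully separate for 6 of the 14, beside 19.8% of all genes tested. Acly and Slc25a1 were higher, and Acss1, Idh1, Mcat and Oxsm lower. For 7 of the 14 the unadjusted p with edgeR was under 0.05, beside 19.2% of all genes. Of 16 SREBP and lipogenic regulators, 0 passed with edgeR (median 0.17), 2 with DESeq2 and 1 with limma-voom. Over all 13295 genes DESeq2 called 1141 and limma-voom 619. An unadjusted p under 0.05 with edgeR was found for 6 of the 16, and for 19.2% of all genes. Nearest to the threshold was Mlxipl, which was lower (-0.80 ± 0.19, edgeR adjusted p = 0.0509). Rxra, next, was higher (0.28 ± 0.08, edgeR adjusted p = 0.0919). For both the groups did not overlap.

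Of 18 genes of triglyceride synthesis and lipid droplets, 2 fell and 0 rose (median -0.13). Lpin1, a phosphatidate phosphatase, fell to 98.1 ± 27.4 CPM in overexpression, against 201.3 ± 25.0 CPM in WT (-1.04 ± 0.22, adjusted p = 0.0347). Plin3, a droplet coat protein, fell by 0.47 ± 0.10 on the log2 scale (adjusted p = 0.0256). The call of Lpin1 was lost without overexpression replicates 2 or 3 or any WT library, at 0.0607 to 0.152, and that of Plin3 in 8 alternatives, at 0.0510 to 0.121. The count over the 5 lists was 15 without overexpression replicate 1 (7 higher and 8 lower) and 5 without replicate 2 (3 and 2). It was 4 without replicate 3 (2 and 2) and 6 without replicate 4 (2 and 4). Without WT replicates 1, 2 and 3 it was 5, 3 and 4 (2 and 3, 2 and 1, 3 and 1). The calls over all genes moved as well, from 644 with all libraries. They numbered 1151, 432, 430 and 429 without overexpression replicates 1 to 4, and 283, 256 and 396 without WT replicates 1 to 3. With library totals alone the count over the lists was 6 higher and 3 lower. Under that scaling the median of all genes was 0.15, against 0.02 with TMM.

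**Figure D5:**
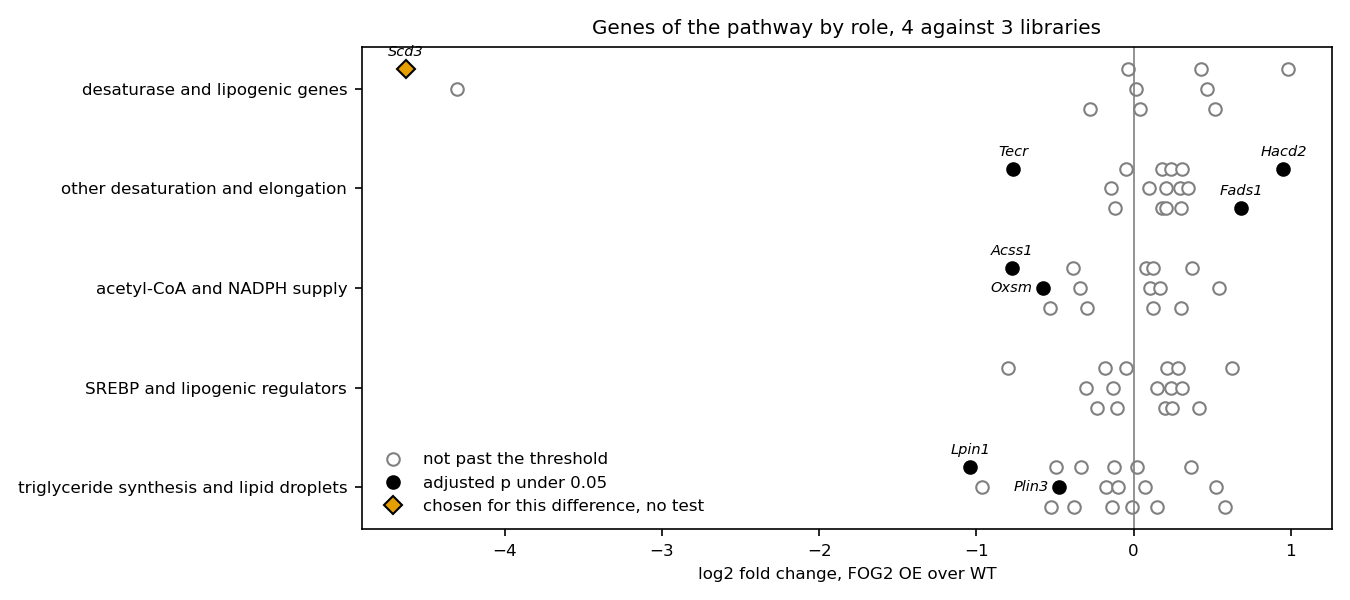
Each point is a tested gene, placed by its log2 fold change of overexpression over wild type, with the 10 described genes on top and 4 other lists under them; filled points have an adjusted p under 0.05. Scd3, the diamond, was chosen for this difference and carries no test. In the 4 other lists 2 filled points lie on the right and 5 on the left.

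Markers of the cells in the samples moved beside these genes. Cardiomyocyte markers summed to 53750 to 71490 CPM in overexpression and 84910 to 97610 CPM in WT, and 3 of 9 tested fell (Myl7, Sln and Ryr2, median -0.40). Smooth muscle and pericyte markers summed to 1150 to 1655 CPM in overexpression and 356.7 to 448.6 CPM in WT, and 3 of 8 rose (Acta2, Cspg4 and Notch3). Most of the difference in this sum came from Acta2, at 680.6 to 1035 CPM in overexpression and 15.3 to 36.2 CPM in WT. Of brown fat markers 2 of 5 fell (Cox8b and Kcnk3, which heart muscle also makes), and of Schwann and myelin markers 1 of 6 rose (Mbp). Of all genes tested, 1.55% rose and 3.29% fell. The call of Notch3 (adjusted p = 0.0479) was lost in 10 of the 17 alternatives, that of Cox8b in 8, that of Mbp in 6 and that of Kcnk3 in 3, at adjusted p of up to 0.190, 0.152, 0.163 and 0.103. Fibroblast, endothelial, macrophage, epicardial and skin or sebaceous markers passed edgeR's test in 0 of 8, 8, 8, 7 and 2 tested. Of the fibroblast markers 4 had an unadjusted p under 0.05, beside 19.2% of all genes. DESeq2 called 2 of them, beside 1141 of all 13295 genes. In the other 4 lists 0 had an unadjusted p under 0.05 and DESeq2 called 0. The skin and sebaceous markers Krt5 and Awat1 were at 0 in every library, but Krt14, Krt10 and Krt79 had counts in every library. Krt79 had 1 to 5 counts a library. Awat2 had 1 to 6 counts in every library but overexpression replicate 4, where it had 0. Krt14 had 0.174 to 5.44 CPM in overexpression and 0.2385 to 2.34 CPM in WT. Krt10 had 1.22 to 2.60 CPM in overexpression and 2.26 to 2.96 CPM in WT. The list summed to 2.26 to 8.33 CPM in overexpression and 3.95 to 5.91 CPM in WT. The part of any of these cell types in the differences of Scd3 and Scd4 was not tested.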

How the data were processed

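RNA sequencing counts of 7 left atrial libraries were analysed, 4 of FOG2 overexpression and 3 of WT. The authors deposited whole-number counts per gene; per the submitters' processing notes their tools were STAR, HTSeq 0.6.0 and DESeq2 with mm10, with no roles stated. The sources used here state neither the strand setting nor the annotation, and the labels name both polyA mRNA-seq and removal of ribosomal RNA. Rows that name no gene were left out: 23.4% to 30.5% of reads had no feature, 37.1% to 43.4% several alignments and 0.101% to 0.254% an ambiguous gene, which left 27.8% to 33.1% in genes. Genes were filtered with filterByExpr (minimum count 10, total 15), scaled by TMM and fitted in edgeR 4.0.16 (R 4.3.3). The two-sided test was edgeR's quasi-likelihood test, robust, with Benjamini-Hochberg adjustment over all 13295 genes. Log2 CPM used a prior count of 2. Intervals and floors of counts cover counting error only.

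The members and gene lists were chosen with earlier results of these data known. Named are the members, Zfpm2, called genes of each list (at most 4), the first 3 markers of the lists where given, and the 5 genes closest in pattern to Scd3 and to Scd1 with a mean CPM of at least 1. Sec31b, Acly, Slc25a1, Idh1, Mcat, Mlxipl, Rxra and the antisense genes were named after their values were seen. So were Fabp4, Lipe, Dio2, Car3, Pck1, Awat1, Awat2 and Krt79. The 5 pathway lists are counted together, and the values of 1 of them are not reported here. Gene positions and exon lengths came from GENCODE M21, which matched 95.7% of symbols. Of the triglyceride list, Gpat3 and Gpat4 were not matched by symbol. Alternatives were RLE, upper quartile and no scaling beyond totals, no filter, a filter at 1 CPM in 3 libraries, limma-voom 3.58.1, DESeq2 1.42.0, the replicate block, a covariate for Y-linked transcripts, each library left out, and, chosen after seeing the data, the libraries without Y-linked transcripts.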

Additional observations from a re-analysis of the deposited data

Results flagged for a closer look

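With 4 overexpression libraries, the gap from the most distant library to its nearest neighbour was set against the whole range of the group, for 34 named genes. It exceeded Dixon's critical value of 0.829 for 6 genes, and chance alone flags about 1 in 20 groups. For Scd4 the gap was 0.929 of the range, from 26.1 CPM in overexpression replicate 1 to 3.61 CPM in replicate 4. For Fasn it was 0.975, from 265.3 CPM in overexpression replicate 2 to 111.0 CPM in replicate 3. In the same replicate 2 the gap was 0.924 for Adipoq, 0.930 for Cidec, 0.985 for Ucp1 and 0.895 for Cox8b. Fat cell markers outside the 34 genes were not set against the critical value. Among them Dio2 was highest in overexpression replicate 1, at 114.0 CPM. Car3 and Pck1 were highest in replicate 2, at 97.6 and 36.5 CPM. Which tissue was taken with each atrium is not given in the sources used here, and the cause was not tested.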

How the results depend on the processing

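Each result was recomputed under 17 alternatives. The number of members called counts Scd3, whose call its choice fixed. It was 1 with all libraries and 2 with library totals only, 2 with DESeq2, 2 with limma-voom, 0 with the replicate block, in which Scd3 too misses the rule, and 1 to 3 with a library left out. Pathway genes called, 8 with all libraries, numbered 15 with DESeq2 and 3 to 15 with a library left out. All genes called, 644 in the whole table, numbered 1141 with DESeq2, 382 with the replicate block and 256 to 1151 with a library left out; with library totals only the split was 444 higher and 294 lower, against 206 and 438 with TMM. Of 493 values of 29 named genes under the alternatives, 408 kept direction and side of the threshold, 68 kept direction and lost the call, 5 gained a call and 12 changed sign with no call on either side. The log2 fold change of Scd3 ran from -6.29 to -3.89. Same-numbered libraries deviated together only weakly, with correlations of 0.0789, 0.0136 and 0.0720 for replicates 1, 2 and 3. Replicates 1 and 3 correlated best with their own number, and replicate 2 did not. The highest value was 0.152, for overexpression replicate 4 with WT replicate 2. Within each group the replicate numbers follow the alphabetical order of the library names, so they give no ground for pairing the samples. Correlations this small do not show a pairing either. The replicate block thus matched libraries by name order, and its lost calls say nothing about paired samples. Depth limits Scd3, at 5 counts over the 4 overexpression libraries, and Elovl6, at 19 to 81 counts a library. The causes of these shifts were not tested.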
